A study of Homo sapiens with 18 samples.

Results

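The laminins, nidogens and perlecan of the basement membrane were followed across stem cells and early organoids as 10 genes. They were taken by symbol from the count files: the laminin alpha chains LAMA1, LAMA2, LAMA4 and LAMA5, the beta chains LAMB1 and LAMB2, the gamma chain LAMC1, the nidogens NID1 and NID2, and HSPG2, which encodes perlecan. These were 10 of the 26485 genes in the files, and all 10 were among the 12215 genes with enough counts to be tested.

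Laminins are secreted trimers of an alpha, a beta and a gamma chain that polymerise into a sheet on the cell surface, where integrins and dystroglycan hold them. Nidogens bind the laminin gamma chain and link the laminin sheet to the type IV collagen network, and perlecan is a proteoglycan whose heparan sulfate chains bind growth factors in the same layer. In the developing brain this layer lies under the outer surface of the neural epithelium and anchors the end feet of radial glia.

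RNA came from WIBR3, an established human embryonic stem cell (hESC) line, and was counted by bulk MARS-seq, which reads tags near the 3' ends of transcripts. The 18 libraries formed 6 groups of 3, namely hESC, organoids at Day 5 and organoids at Day 12, each as LIS1+/+ and as LIS1+/-. LIS1, gene symbol PAFAH1B1, regulates the motor dynein, and loss of 1 copy causes lissencephaly, a malformation with a smooth cortex. The sources used here do not give which part of LIS1 was altered or how many clones the LIS1+/- libraries came from. An effect of the genotype and one of a clone cannot be told apart, nor can stage and sequencing pool, since the file names carry a different pool number at each stage. The labels call the libraries repeats without saying whether they were separate cultures, and the file names of the 3 hESC LIS1+/- libraries share 1 number. P-values therefore measure the spread between these libraries, which may be technical.

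Libraries held between 1425098 and 4501489 counts over genes. PAFAH1B1 stood at 51.4 to 61.2 CPM (the gene's count relative to the library's total, scaled by TMM) in hESC LIS1+/- against 72.1 to 111 CPM in hESC LIS1+/+, and no LIS1+/- library overlapped the LIS1+/+ libraries of its stage. The difference passed the test at Day 12 (-0.78 ± 0.20, edgeR adjusted p = 0.0372) but not in hESC (adjusted p = 0.173) or at Day 5 (adjusted p = 0.148). The summed level of 12 pluripotency markers was lower in LIS1+/- at each stage, without overlap. In hESC it was 6993 to 7237 CPM in LIS1+/- against 8621 to 9129 CPM in LIS1+/+. At Day 5 it was 563 to 699 CPM against 1244 to 1286 CPM, and at Day 12 135 to 181 CPM against 213 to 289 CPM. The summed level of 11 neural progenitor markers was 1269 to 1544 CPM in hESC LIS1+/- against 1087 to 1199 CPM in hESC LIS1+/+. At Day 12 it ran from 4636 to 8189 CPM over both genotypes, which overlapped. Relative to the mean of all libraries of their stage, both genotypes together, levels fell with the GC content of the transcript end in 3 libraries. The slope was -0.0150 log2 units per percentage point in replicate 3 of hESC LIS1+/+, -0.0204 in replicate 2 of Day 5 LIS1+/- and -0.0247 in replicate 2 of Day 12 LIS1+/+. In the other 15 libraries the slope lay between -0.000857 and 0.0119. Each slope is relative to its stage, so a negative slope in 1 library raises those of the others of that stage. RNA of whole cultures was measured, so fewer cells of a type and less RNA per cell cannot be told apart.

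From hESC to organoid the 10 genes moved apart. LAMA1 rose and LAMA5 fell in both genotypes by Day 5. LAMA2 fell in LIS1+/+ from hESC to Day 5, a change not shown to differ from that in LIS1+/-. Between Day 5 and Day 12 LAMA4 and NID2 rose in LIS1+/+, and neither change was shown to differ from that in LIS1+/-. LAMB1 and NID1 carried the genotype difference: at Day 12 LAMB1 was 3.85-fold lower and NID1 2.66-fold lower in LIS1+/-, while at hESC and at Day 5 no member passed the genotype test.

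**Figure D1:**
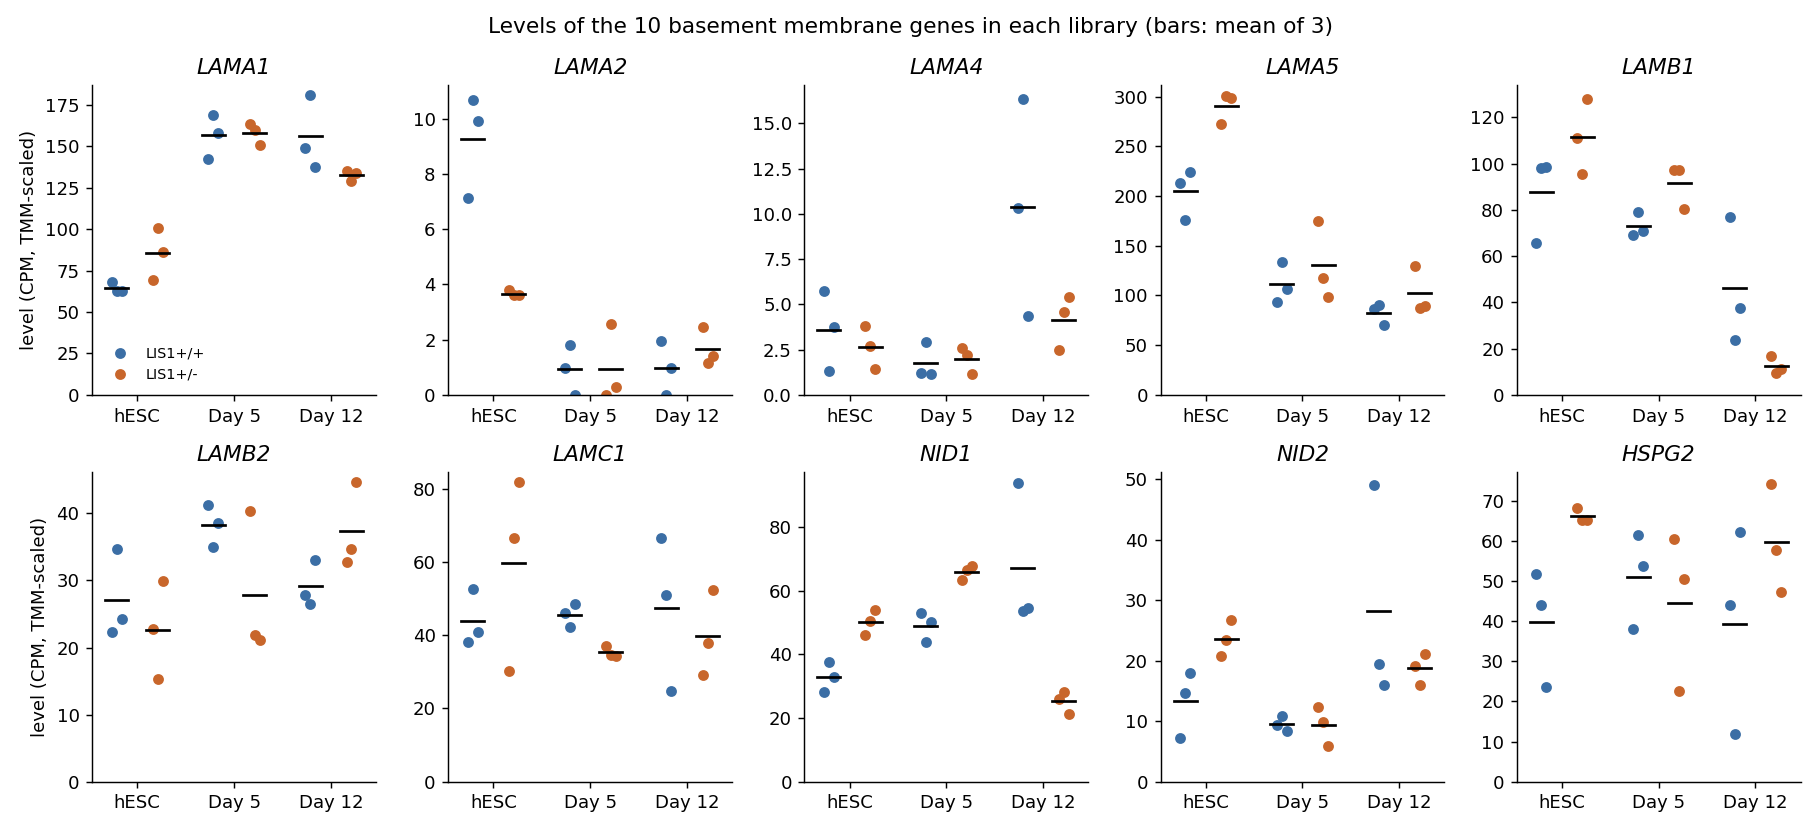
Level of each of the 10 genes in CPM (vertical axis, linear, from 0) in each library, by stage; blue points are LIS1+/+ libraries, orange points LIS1+/- libraries and bars the mean of 3. At Day 12 the LIS1+/- points of LAMB1 (9.39 to 16.7 CPM) and NID1 (21.4 to 28.2 CPM) lie below all LIS1+/+ points.

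The 250 bases before the RefSeq start (GRCh38.p14) are shown for LAMB1 and NID1, which differed together between the genotypes at Day 12. Shown as alpha chain genes are LAMA5, which fell from hESC to Day 5, and LAMA4, which rose in LIS1+/+ from Day 5 to Day 12. Capitals mark GGGCGG (the GC box) and CCAAT on either strand. The windows are chr7:108003162-108003411 on the minus strand for LAMB1, chr1:236065091-236065340 on the minus strand for NID1, chr20:62367313-62367562 on the minus strand for LAMA5 and chr6:112254568-112254817 on the minus strand for LAMA4.
LAMB1: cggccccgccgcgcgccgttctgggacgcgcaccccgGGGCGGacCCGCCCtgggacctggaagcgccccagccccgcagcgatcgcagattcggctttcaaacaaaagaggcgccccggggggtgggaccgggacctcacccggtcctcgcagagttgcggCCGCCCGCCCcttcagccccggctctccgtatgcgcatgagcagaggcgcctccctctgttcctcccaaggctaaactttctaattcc
NID1: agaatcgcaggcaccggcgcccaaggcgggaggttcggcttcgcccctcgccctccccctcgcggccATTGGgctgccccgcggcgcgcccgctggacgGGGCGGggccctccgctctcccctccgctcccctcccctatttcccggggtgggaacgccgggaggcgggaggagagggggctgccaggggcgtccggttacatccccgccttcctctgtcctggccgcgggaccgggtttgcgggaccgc
LAMA5: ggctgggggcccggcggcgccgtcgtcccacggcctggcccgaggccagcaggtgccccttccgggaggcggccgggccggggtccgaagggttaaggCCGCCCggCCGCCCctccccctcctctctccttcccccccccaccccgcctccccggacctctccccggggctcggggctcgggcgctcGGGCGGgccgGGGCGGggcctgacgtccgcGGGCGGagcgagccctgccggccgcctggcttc
LAMA4: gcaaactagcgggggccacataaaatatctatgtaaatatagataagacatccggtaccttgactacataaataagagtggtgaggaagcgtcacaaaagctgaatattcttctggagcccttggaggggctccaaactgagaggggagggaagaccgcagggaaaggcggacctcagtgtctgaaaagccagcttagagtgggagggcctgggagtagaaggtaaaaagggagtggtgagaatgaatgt
GGGCGG matched at 4 places in LAMB1, 1 in NID1, 5 in LAMA5 and 0 in LAMA4, with overlapping matches counted separately, and CCAAT matched at 1 place in NID1. The TATA box letters TATAAA were searched on both strands as well, as were the AP-1 site letters TGANTCA and the TEAD site letters GGAATG, and none of these matched in the 4 windows. Windows were found for 9 of the 10 members, and 7 of the 9 held GGGCGG, as did 42.3% of 27305 promoters of the same length. Of those promoters, 33.0% held CCAAT, 11.1% held the TATA box letters, 6.60% the AP-1 site letters and 11.9% the TEAD site letters. The GC content of the LAMA4 window was 48.4%, and that of the other windows shown was 70.4% for LAMB1, 76.4% for NID1 and 82.8% for LAMA5. A match describes the letters of the window only. By the GENCODE positions given below, the LAMA4 window lies inside the gene, and those of LAMB1 and NID1 lie partly inside theirs. For these genes the windows therefore depend on the RefSeq start.

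Changes over development were tested within each genotype. From hESC to Day 5 in LIS1+/+, 4 of the 10 genes passed the test, 2 higher and 2 lower, where 44.6% of all tested genes passed (22.9% higher and 21.7% lower). From Day 5 to Day 12, 2 passed, both higher, where 24.5% of all genes passed (12.7% higher and 11.7% lower). In LIS1+/- the counts were 4 for the first step (1 higher and 3 lower, against 43.7% of all genes, 22.4% higher and 21.4% lower) and 2 for the second (both lower, against 16.5%, 8.9% higher and 7.64% lower). Over the whole span from hESC to Day 12, 7 passed in LIS1+/+ (4 higher and 3 lower, against 53.1%, 28.1% higher and 25% lower) and 5 in LIS1+/- (2 higher and 3 lower, against 52.1%, 26.7% higher and 25.4% lower). The median log2 fold change of the 10 from hESC to Day 12 was 0.11 in LIS1+/+ and -0.47 in LIS1+/-, beside 0.09 and 0.04 over all genes. Passing means an adjusted p under 0.05 in edgeR's quasi-likelihood test, by the Benjamini-Hochberg method with every tested gene included. The steps share the Day 5 libraries and are given side by side.

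**Figure D2:**
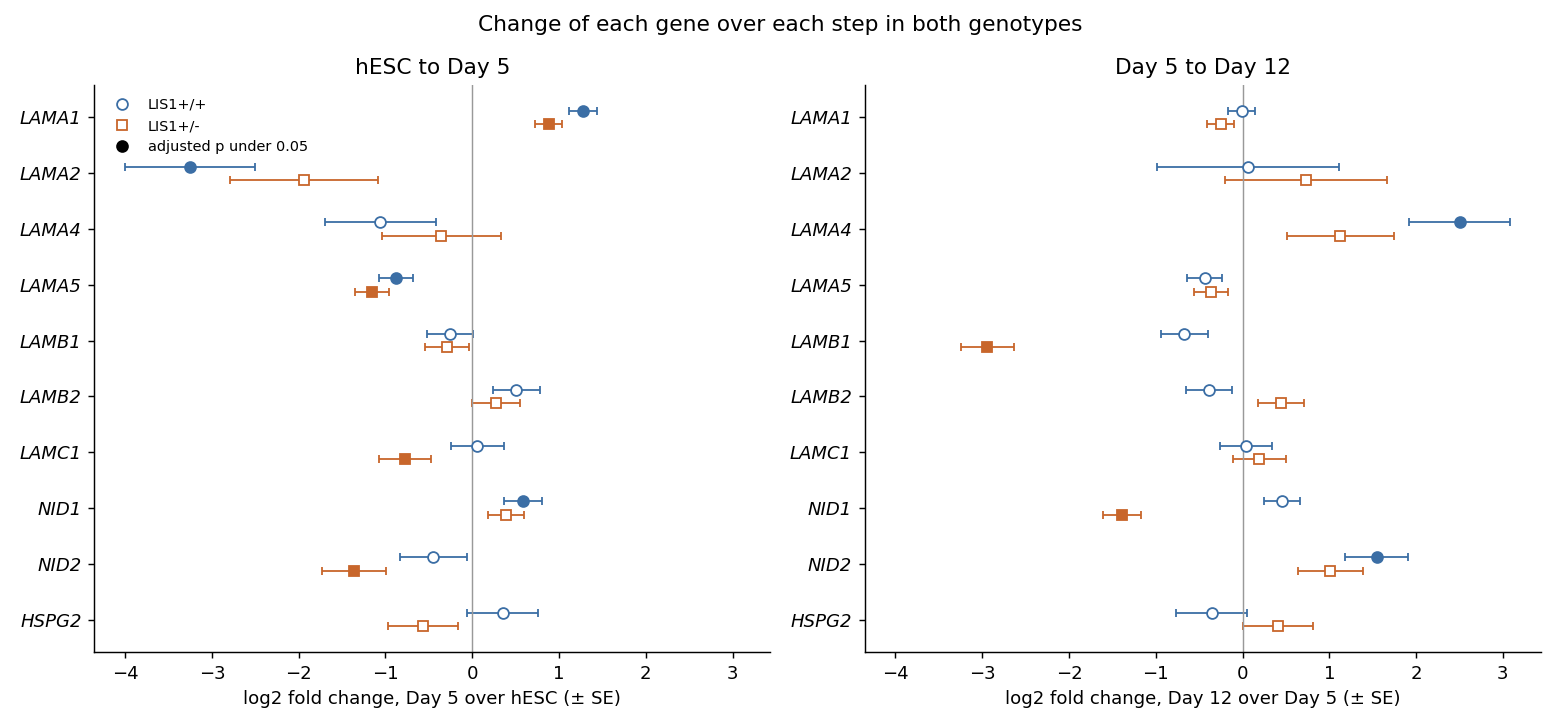
Log2 fold change with its SE (horizontal axis) of each gene from hESC to Day 5 (left) and from Day 5 to Day 12 (right); blue circles are LIS1+/+, orange squares LIS1+/-, and filled symbols have an adjusted p under 0.05. LAMA1 lies right of 0 and LAMA5 left of 0 in both genotypes in the left panel, and in the right panel LAMB1 and NID1 are filled in LIS1+/- alone.

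LAMA1 (chr18:6941744-7117814, minus strand, GRCh38 in GENCODE, as for the positions that follow) encodes the alpha chain of the laminin found in early embryos. Its level was 68.1, 62.8 and 62.7 CPM in hESC LIS1+/+ and 69.4, 101 and 86.6 CPM in hESC LIS1+/-. At Day 5 it was 143, 169 and 158 CPM in LIS1+/+ and 163, 159.8 and 151 CPM in LIS1+/-, above every hESC library. The rise was 2.42-fold in LIS1+/+ (log2 fold change 1.28 ± 0.16 SE, edgeR adjusted p = 4.91e-07) and 1.84-fold in LIS1+/- (0.88 ± 0.16, adjusted p = 6.86e-05). Day 12 libraries gave 149, 181 and 138 CPM in LIS1+/+ and 135, 129 and 134 CPM in LIS1+/-, and neither change from Day 5 passed the test (-0.01, 95% interval -0.33 to 0.31, and -0.25, interval -0.57 to 0.07). The means of the Day 5 groups and of Day 12 LIS1+/+, from 156 to 158 CPM, differed by less than their SDs. From hESC to Day 12 LAMA1 rose by 1.27 ± 0.17 in LIS1+/+ (edgeR adjusted p = 4.76e-07) and by 0.63 ± 0.16 in LIS1+/- (adjusted p = 0.00183).

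LAMA5 (chr20:62307955-62367312, minus strand) encodes the alpha chain of the most widespread laminin of epithelia, on which pluripotent stem cells are commonly grown. It stood at 213, 176 and 224 CPM in hESC LIS1+/+ and at 272, 300.2 and 299 CPM in hESC LIS1+/-. At Day 5 the values were 93.6, 133 and 106 CPM in LIS1+/+ and 175, 118 and 98.9 CPM in LIS1+/-, so every Day 5 library lay below every hESC library of the same genotype. The fall was 1.84-fold in LIS1+/+ (-0.88 ± 0.20, adjusted p = 0.000688) and 2.23-fold in LIS1+/- (-1.16 ± 0.20, adjusted p = 2.83e-05). At Day 12 LAMA5 was at 85.9, 90.6 and 70.6 CPM in LIS1+/+ and at 129.8, 87.1 and 89.8 CPM in LIS1+/-, and the further change from Day 5 did not pass in either genotype (-0.44 and -0.36). The whole fall from hESC to Day 12 was 2.49-fold in LIS1+/+ (-1.32 ± 0.21, edgeR adjusted p = 6.48e-06) and 2.87-fold in LIS1+/- (-1.52 ± 0.20, adjusted p = 5.04e-07). Within each library, counts of LAMA1 per count of LAMA5 ran from 0.255 to 0.356 in hESC, from 0.936 to 1.52 at Day 5, and at Day 12 from 1.04 to 1.49 in the LIS1+/- libraries and from 1.74 to 2 in the LIS1+/+ libraries. The counts are not scaled by transcript length, so this ratio shows a shift between groups and not which of the genes was the more abundant. ADRM1 lies on the other strand at the end of LAMA5 and overlaps its last bases in GENCODE, while in RefSeq the genes do not overlap. It had 109 to 2102 counts per library. ADRM1 did not pass from hESC to Day 5, where LAMA5 fell (0.39 ± 0.36 in LIS1+/+ and -0.28 ± 0.36 in LIS1+/-). From hESC to Day 12 it fell by 1.48 on the log2 scale in LIS1+/+ (adjusted p = 0.00324) and by 0.96 in LIS1+/- (adjusted p = 0.0343). Without a stated counting strand, a share of ADRM1 tags in the LAMA5 values was not tested.

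LAMA2 (chr6:128883141-129516569, plus strand) encodes the alpha chain of muscle and peripheral nerve laminin and had 109 counts in all. It gave 7.14, 10.7 and 9.93 CPM in hESC LIS1+/+ and 3.79, 3.61 and 3.61 CPM in hESC LIS1+/-, without overlap. At Day 5 it gave 0.965, 1.80 and 0 CPM in LIS1+/+, where the count of 0 in replicate 3 allows up to 0.677 CPM. The fall to Day 5 in LIS1+/+ was 9.52-fold (-3.25 ± 0.75, adjusted p = 0.000945). At Day 12 it gave 1.94, 0 and 0.973 CPM in LIS1+/+ and 2.47, 1.14 and 1.42 CPM in LIS1+/-, below the hESC libraries of the same genotype. The count of 0 in Day 12 LIS1+/+ replicate 2 allows up to 1.89 CPM. The change from hESC to Day 12 passed in LIS1+/+ (-3.19 ± 0.88, edgeR adjusted p = 0.00340) but not in LIS1+/- (-1.21 ± 0.80, edgeR adjusted p = 0.211). In LIS1+/- the Day 5 values of 0, 2.56 and 0.293 CPM rested on 8 counts, and the change from hESC to Day 5 of -1.94 ± 0.86 had an edgeR adjusted p of 0.0682. DESeq2 called it with all libraries (-1.99, adjusted p = 0.0404), and edgeR without Day 5 LIS1+/- replicate 2 (-4.14, adjusted p = 0.00609). The difference between the changes of the genotypes to Day 5 did not pass (1.31 ± 1.21, edgeR adjusted p = 0.711).

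LAMA4 (chr6:112108760-112254939, minus strand) encodes the alpha chain of vascular and mesenchymal laminin. In LIS1+/+ it went from 1.21, 2.93 and 1.13 CPM at Day 5 to 10.3, 16.4 and 4.38 CPM at Day 12, with no overlap, a 5.66-fold rise (2.50 ± 0.58, adjusted p = 0.00236). In LIS1+/- it went from 2.62, 2.19 and 1.17 CPM to 2.47, 4.55 and 5.41 CPM, which overlap (1.13 ± 0.62, adjusted p = 0.222). The difference between these changes did not pass either (-1.37 ± 0.86, adjusted p = 0.528). In hESC LIS1+/+ LAMA4 stood at 5.71, 1.34 and 3.72 CPM, and its rise to Day 12 (1.44 ± 0.59, edgeR adjusted p = 0.0426) was lost without hESC LIS1+/+ replicate 2 or 3 or Day 12 LIS1+/+ replicate 1 or 2, with adjusted p from 0.0744 to 0.251. It fell to 0.94 without replicate 2 of Day 12.

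LAMB1 (chr7:107923799-108003255, minus strand) encodes the beta chain of most embryonic laminins. It stood at 65.7, 98.2 and 98.7 CPM in hESC LIS1+/+ and at 69.2, 78.9 and 70.8 CPM at Day 5, which overlap (-0.26, 95% interval -0.79 to 0.28). In LIS1+/- it stood at 111, 95.6 and 128 CPM in hESC and at 97.2, 97.2 and 80.2 CPM at Day 5, which overlap too. Between Day 5 and Day 12 the LIS1+/- libraries fell to 16.7, 9.39 and 11.1 CPM, a 7.69-fold fall (-2.94 ± 0.30, adjusted p = 2.13e-07). The LIS1+/+ libraries stood at 76.9, 23.9 and 37.5 CPM at Day 12, where replicate 1 lay within the Day 5 range and replicates 2 and 3 below it (-0.67 ± 0.27, edgeR adjusted p = 0.0728). Without Day 12 LIS1+/+ replicate 1 that change passed (-1.24, adjusted p = 0.000991), and so it did with all libraries and no filter (-0.71, adjusted p = 0.0113). From hESC to Day 12 LAMB1 fell in LIS1+/+ (-0.93 ± 0.28, adjusted p = 0.00697), a call that was lost when the 3 libraries with a GC trend were left out together (-0.53, adjusted p = 0.107). In LIS1+/- the fall over that span was 9.39-fold (-3.23 ± 0.31, adjusted p = 3.74e-09). DLD overlaps the end of LAMB1 on the other strand in GENCODE, while in RefSeq the genes do not overlap. DLD had 1 to 14 counts per library.

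LAMB2 (chr3:49121114-49133118, minus strand) encodes the beta chain that replaces that of LAMB1 in mature kidney and at the nerve-muscle junction. It lay between 15.3 and 44.7 CPM in all 18 libraries. Its values were 22.7, 15.3 and 29.9 CPM in hESC LIS1+/- and 32.8, 34.7 and 44.7 CPM in Day 12 LIS1+/-, without overlap, a 1.65-fold rise (0.72 ± 0.27, edgeR adjusted p = 0.0279). That call was lost without hESC LIS1+/- replicate 1 (adjusted p = 0.0610) or 2 (0.49, adjusted p = 0.173), or Day 12 LIS1+/- replicate 3 (0.57, adjusted p = 0.133). In LIS1+/+ LAMB2 changed by 0.12 over the same span (95% interval -0.47 to 0.71).

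LAMC1 (chr1:183023460-183145592, plus strand), the gamma chain of most laminins, was called in 1 of the 12 comparisons. Means ran from 35.3 ± 1.48 CPM (SD, n = 3) in Day 5 LIS1+/- to 59.6 ± 26.5 CPM in hESC LIS1+/-. In LIS1+/- it went from 30.3, 66.7 and 81.9 CPM in hESC, a wide spread, to 37.0, 34.7 and 34.2 CPM at Day 5 (-0.78 ± 0.30, edgeR adjusted p = 0.0405). The groups overlap, and the call was lost without hESC LIS1+/- replicate 2 (-0.70, adjusted p = 0.115) or 3 (-0.48, adjusted p = 0.262), or any of the Day 5 LIS1+/- libraries (adjusted p from 0.0735 to 0.0992). From hESC to Day 12 in LIS1+/- LAMC1 did not pass (-0.58 ± 0.30, edgeR adjusted p = 0.108). That fall was called with no filter (adjusted p = 0.0426), without hESC LIS1+/- replicate 1 (-0.89, adjusted p = 0.0117) and without Day 12 LIS1+/- replicate 3 (-0.84, adjusted p = 0.0468).

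NID1 (chr1:235975830-236065162, minus strand) encodes nidogen 1. In LIS1+/+ it went from 28.1, 37.4 and 32.9 CPM in hESC to 52.8, 43.7 and 50.1 CPM at Day 5 and 93.7, 53.5 and 54.5 CPM at Day 12, with no overlap between successive stages. The rise from hESC to Day 12 was 2.05-fold (1.04 ± 0.22, adjusted p = 0.000326). The first step (0.58 ± 0.22, edgeR adjusted p = 0.0303) was no longer called without hESC LIS1+/+ replicate 1 or 3 or Day 5 LIS1+/+ replicate 1 or 3, with adjusted p from 0.0657 to 0.132. The second step did not pass (0.45 ± 0.21, edgeR adjusted p = 0.108) and was 0.14 without Day 12 LIS1+/+ replicate 1. It passed without the 3 libraries with a GC trend (0.58, adjusted p = 0.0469). In LIS1+/- the values were 46.1, 50.5 and 53.7 CPM in hESC and 63.2, 66.5 and 67.6 CPM at Day 5, and then 26.0, 28.2 and 21.4 CPM at Day 12. The fall from Day 5 was 2.62-fold (-1.39 ± 0.21, adjusted p = 4.14e-05), and the Day 12 libraries lay below the hESC libraries as well (-1.0 ± 0.22, adjusted p = 0.000418).

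NID2 (chr14:52004803-52069228, minus strand) encodes nidogen 2, the paralog with the same binding partners. In LIS1+/+ it was at 7.14, 14.7 and 18 CPM in hESC, 9.41, 10.8 and 8.34 CPM at Day 5, and 49.1, 19.5 and 16.1 CPM at Day 12. The rise from Day 5 to Day 12 was 2.92-fold (1.54 ± 0.36, edgeR adjusted p = 0.00264), and replicate 1 of Day 12 stood above the others: without it the change was 0.89 with an adjusted p of 0.0784. The rise from hESC (1.10 ± 0.38, adjusted p = 0.0182) fell to 0.44 without that library (adjusted p = 0.342), and was 0.76 without hESC LIS1+/+ replicate 1 (adjusted p = 0.127). In LIS1+/- NID2 went from 20.8, 23.4 and 26.7 CPM in hESC down to 12.3, 9.87 and 5.85 CPM at Day 5 (-1.36 ± 0.37, adjusted p = 0.00425) and stood at 19.2, 15.9 and 21.1 CPM at Day 12. The Day 12 libraries lay above those of Day 5 (1.01 ± 0.37, edgeR adjusted p = 0.0619), and this rise was called with no filter (adjusted p = 0.0247), with only the compared libraries in the model (adjusted p = 0.0482) and by DESeq2 (adjusted p = 0.0483). The changes from Day 5 to Day 12 were not shown to differ between the genotypes (-0.53 ± 0.52, edgeR adjusted p = 0.718). NID2 overlaps C14orf166 on the other strand by 5886 bases in RefSeq, and C14orf166 had 263 to 1038 counts per library, so without a stated counting strand the NID2 values are uncertain.

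HSPG2 (chr1:21822245-21937297, minus strand), which encodes the core protein of perlecan, was called in none of the 12 comparisons. It ran from 12.0 to 74.2 CPM, and the lowest value of its group was in each of the 3 libraries with a GC trend: 23.6 CPM beside 51.9 and 44.1 CPM in hESC LIS1+/+, 22.7 CPM beside 60.6 and 50.6 CPM in Day 5 LIS1+/-, and 12.0 CPM beside 43.9 and 62.3 CPM in Day 12 LIS1+/+. The last 500 bases of its transcript are 63% GC, above those of 96.4% of tested genes. The change from hESC to Day 12 in LIS1+/+ was -0.01 (95% interval -0.92 to 0.91), and 0.15 without those 3 libraries. HSPG2 overlaps LDLRAD2 on the other strand by 2982 bases in RefSeq, and LDLRAD2 had 0 to 19 counts per library.

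The genotypes were then compared at each stage. In hESC, 0 of the 10 members passed, where 0.491% of all tested genes did (0.295% higher and 0.196% lower in LIS1+/-). At an unadjusted p under 0.05 there were 4 (LAMA1, LAMA5, NID1 and NID2), where 11.2% of all genes stood, and DESeq2 called 0. The libraries of the genotypes did not overlap for 6 of the 10, where 18.3% of all genes did not overlap (10.6% higher and 7.69% lower): LAMA1, LAMA5, NID1, NID2 and HSPG2 were higher in each LIS1+/- library than in any LIS1+/+ library, and LAMA2 was lower. The smallest p among them was that of NID1, at 46.1 to 53.7 CPM in LIS1+/- against 28.1 to 37.4 CPM in LIS1+/+ (0.62 ± 0.22, edgeR adjusted p = 0.256). The median log2 difference of the 10 was 0.44, beside 0.03 over all genes.

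At Day 5, 0 of 10 members passed, where 1.95% of all genes did (0.671% higher and 1.28% lower). NID1 alone had an unadjusted p under 0.05 (0.43 ± 0.20, edgeR adjusted p = 0.408), where 11.5% of all genes had one, and DESeq2 called 0. The LIS1+/- libraries lay above the LIS1+/+ libraries for LAMB1 and NID1 and below them for LAMC1, and the other 7 overlapped. Over all genes 17.5% did not overlap (8.06% higher and 9.45% lower). The median of the 10 was 0.00, beside 0.01 over all genes.

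At Day 12, 2 of 10 members passed, both lower in LIS1+/-, where 1.4% of all genes passed (0.336% higher and 1.06% lower). LAMB1 stood at 16.7, 9.39 and 11.1 CPM in LIS1+/- against 76.9, 23.9 and 37.5 CPM in LIS1+/+. The libraries did not overlap, and the difference was 3.85-fold (-1.95 ± 0.32, edgeR adjusted p = 0.00119). With only the 6 Day 12 libraries in the model the difference was again -1.95, but the adjusted p was 0.0579. NID1 stood at 26.0, 28.2 and 21.4 CPM against 93.7, 53.5 and 54.5 CPM, also without overlap, a 2.66-fold difference (-1.41 ± 0.22, adjusted p = 0.000556). The other alternatives, including leaving out any 1 library, kept both calls. The other beta chain, LAMB2, did not pass (0.37 ± 0.27, edgeR adjusted p = 0.599), nor did the other nidogen, NID2 (-0.57 ± 0.36, adjusted p = 0.511). LAMC1 differed by -0.22 (95% interval -0.86 to 0.43), LAMA5 by 0.30 (-0.12 to 0.72) and HSPG2 by 0.56 (-0.31 to 1.44). LAMA1 did not overlap, at 129 to 135 CPM against 138 to 181 CPM, but its difference of -0.23 ± 0.16 did not pass (adjusted p = 0.555). LAMA4 was at 2.47 to 5.41 CPM against 4.38 to 16.4 CPM (-1.23 ± 0.55, adjusted p = 0.342). In all, 3 of the 10 did not overlap, each lower in LIS1+/-, where 16.9% of all genes did not overlap (8.47% higher and 8.43% lower). At an unadjusted p under 0.05 there were 3 (LAMA4, LAMB1 and NID1), where 12.7% of all genes stood.

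**Figure D3:**
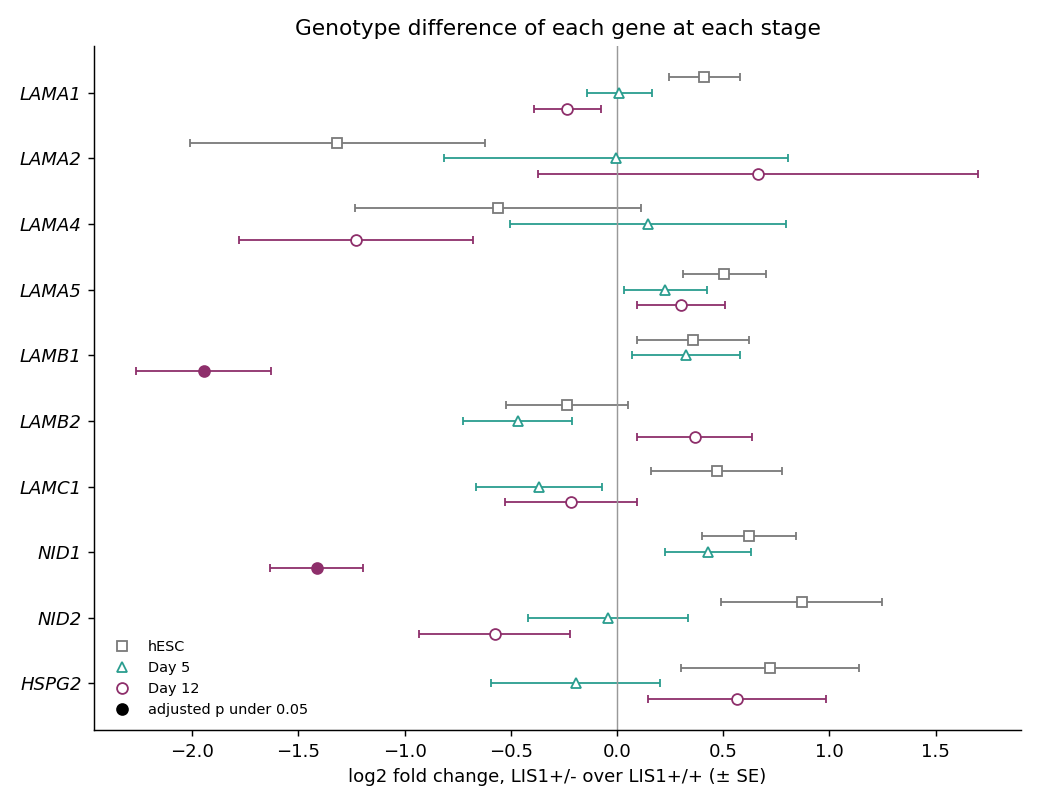
Log2 fold change of LIS1+/- over LIS1+/+ with its SE (horizontal axis) for each gene in hESC (grey squares), at Day 5 (green triangles) and at Day 12 (purple circles); filled symbols have an adjusted p under 0.05. LAMB1 (-1.95) and NID1 (-1.41) at Day 12 are the only filled symbols, and both genes lie right of 0 in hESC and at Day 5.

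The genotype difference itself changed with stage for the same 2 genes. For LAMB1 the log2 difference at Day 12 minus that at Day 5 was -2.27 ± 0.41 (adjusted p = 0.00431), and for NID1 it was -1.84 ± 0.30 (adjusted p = 0.00122). These were the 2 members called, where 1.06% of all genes were (0.385% higher and 0.671% lower). Against hESC the differences were -2.30 ± 0.41 for LAMB1 (edgeR adjusted p = 0.00941) and -2.04 ± 0.31 for NID1 (adjusted p = 0.00142), again the 2 members called, where 0.377% of all genes were (0.0164% higher and 0.36% lower). Without Day 12 LIS1+/- replicate 3 the LAMB1 difference against hESC had an adjusted p of 0.0524. Between Day 5 and hESC the genotype difference changed for 0 members, where 0.573% of all genes changed (0.0819% higher and 0.491% lower). None had an unadjusted p under 0.05 in that edgeR test, where 12% of all genes had one, and DESeq2 called 0.

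Markers of some other cell types were lower too in LIS1+/- at Day 12. Over all tested genes, 1.06% were called lower in LIS1+/- at Day 12 and 0.336% higher. The summed level of 14 mesenchyme and fibroblast markers was 1088, 182 and 470 CPM in LIS1+/+ and 162, 120 and 128 CPM in LIS1+/-, and 6 of the 9 tested markers were lower in LIS1+/-. In LIS1+/- the markers POSTN and FOXC2 had no count, and in LIS1+/+ FOXC2 had none. The sum of 8 neural crest markers was 475, 137 and 277 CPM in LIS1+/+ against 71.7, 79.7 and 73.5 CPM, with 6 of 8 lower and FOXD3 at 0 in LIS1+/-. That of 12 endoderm and yolk sac markers was 656, 182 and 200.03 CPM against 179, 157 and 178 CPM, with 2 of 6 tested lower and SOX17, FOXA2 and GATA4 at 0 in LIS1+/-. That of 12 endothelium and pericyte markers overlapped, at 56.9, 10.7 and 22.4 CPM against 19.8, 21.1 and 21.9 CPM, with 0 of 5 tested called and PECAM1 at 0 in both groups and VWF and EMCN at 0 in LIS1+/+. The sum of 10 surface ectoderm markers overlapped too, at 105 to 320.5 CPM against 184 to 208 CPM, though 3 of the 6 tested were lower, with KRT5, KRT14, KRT17 and TP63 at 0 in both groups and CDH1 at 0 in LIS1+/-. Of 8 tested choroid plexus and roof plate markers 0 passed.

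In LIS1+/+ LAMB1 and NID1 had the same order over the 3 libraries as the mesenchyme, neural crest and endoderm sums, highest in replicate 1 and lowest in replicate 2. The order was not particular to those lists, since the endothelium, surface ectoderm and choroid plexus sums had it too (choroid plexus 890, 457 and 487 CPM). NID1 was nearly level in LIS1+/+ replicates 2 and 3, at 53.5 and 54.5 CPM. Replicate 2, with a mesenchyme sum of 182 CPM close to the 162 CPM of LIS1+/- replicate 1, had 23.9 CPM of LAMB1 against 16.7 CPM there, and 53.5 CPM of NID1 against 26.0 CPM. Its neural crest sum was 137 CPM against 71.7 CPM in that library. Replicate 2 was also the library with the steepest GC trend, and the transcript ends of LAMB1 (32.4% GC) and NID1 (34.4%) lie below the median of 42.6% over all genes. Without LIS1+/+ replicate 2 the genotype differences were -2.25 for LAMB1 and -1.55 for NID1. Without LIS1+/+ replicate 1, the library with the highest marker sums, they were smaller, at -1.39 and -1.10, and both were called. The part of the marker-bearing cells in the LAMB1 and NID1 differences was not tested.

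**Figure D4:**
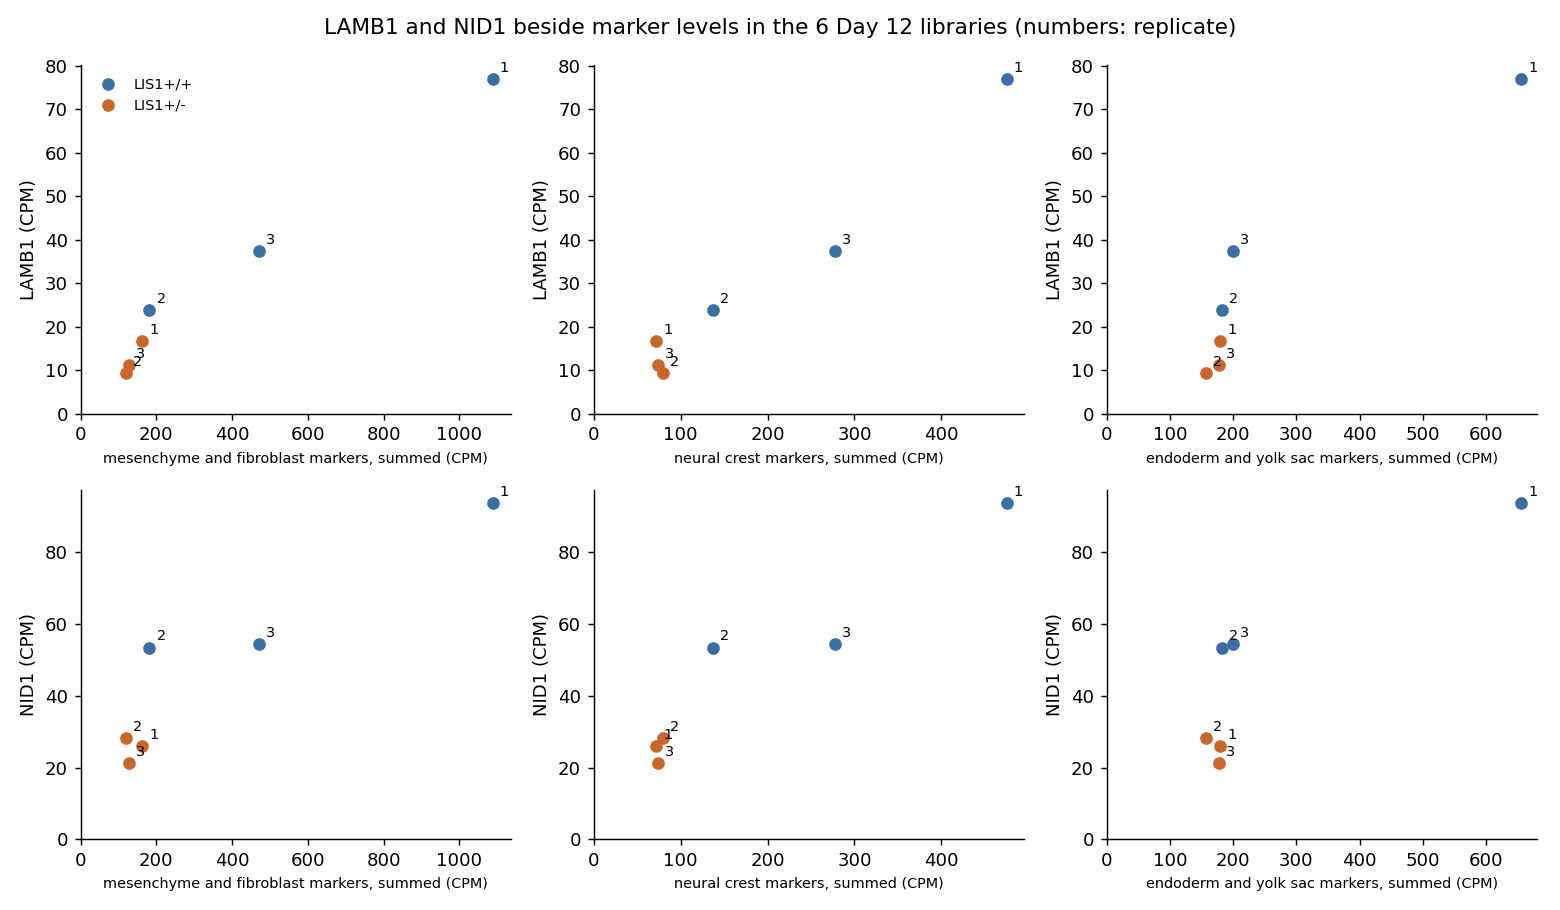
Level of LAMB1 (top) and NID1 (bottom) in CPM against the summed CPM of mesenchyme, neural crest and endoderm markers in the 6 Day 12 libraries, with linear axes from 0; blue points are LIS1+/+, orange points LIS1+/- and numbers the replicate. LIS1+/+ replicate 1 has the highest sums and the highest LAMB1 (76.9 CPM) and NID1 (93.7 CPM), and LIS1+/+ replicate 2 lies near the LIS1+/- libraries on the mesenchyme axis.

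Genes of the same layer were read from lists chosen by function. From hESC to Day 12, 28.1% of all tested genes rose and 25% fell in LIS1+/+ (53.1% in all). Of 10 basement membrane collagens 6 were tested, and from hESC to Day 12 in LIS1+/+ 2 rose and 2 fell. COL4A6 and COL4A5, chains of the type IV collagen network found in restricted sites, rose. COL4A6 went from 33.3, 16.7 and 32.9 CPM in hESC LIS1+/+ to 415, 790.1 and 538 CPM at Day 12 (4.37 ± 0.27, adjusted p = 2.11e-12), and its rise in LIS1+/- was 4.28 ± 0.26. COL4A5 rose by 2.91 ± 0.20 and 2.50 ± 0.19. COL4A1, a chain of the network present in all basement membranes, fell from 222, 209.7 and 247 CPM to 62.7, 59.1 and 54.5 CPM in LIS1+/+ (-1.95 ± 0.16, adjusted p = 1.76e-10), and by 2.64 on the log2 scale in LIS1+/-. COL18A1, whose product carries heparan sulfate, fell by 1.62 and 1.77. None of the 6 passed a genotype comparison, where 0.491% of all genes passed in hESC, 1.95% at Day 5 and 1.4% at Day 12.

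Of 32 other glycoproteins and modifiers of the layer 21 were tested, and 11 rose and 6 fell from hESC to Day 12 in LIS1+/+, beside 28.1% and 25% of all genes. SMOC1, a calcium-binding matrix protein, rose from 5.71, 11.4 and 5.59 CPM to 88.5, 69.8 and 114 CPM (3.62 ± 0.34, edgeR adjusted p = 2.14e-09). MEGF9 rose by 4.05 ± 0.42 and BMP1, a protease that trims matrix precursors, by 1.74 ± 0.28. FRAS1, which holds epithelium to its mesenchyme, fell by 2.02 (adjusted p = 4.57e-06). SMOC1 also passed the Day 12 genotype test, at 47.6, 29.6 and 35.9 CPM in LIS1+/- (-1.30 ± 0.27, adjusted p = 0.0101), and its difference changed from that of hESC by -2.38 ± 0.46 (adjusted p = 0.0157). The count of this list between genotypes at Day 12 was 1 of 21, where 1.4% of all genes passed. It was 0 without Day 12 LIS1+/- replicate 2 or 3. At Day 5 the proteoglycan SPOCK1 was higher in LIS1+/- (44.1, 38.8 and 43.3 CPM against 8.68, 7.21 and 14.9 CPM, 2.03 ± 0.43, edgeR adjusted p = 0.0136). PAPLN, papilin, was lower there (10.8, 10.6 and 6.73 CPM against 27.3, 32.7 and 28.6 CPM, -1.66 ± 0.37, adjusted p = 0.0147). The list's Day 5 count was 2 of 21, where 1.95% of all genes passed (0.671% higher and 1.28% lower). That count was 0 without Day 5 LIS1+/+ replicate 2, and 1 without Day 5 LIS1+/+ replicate 1 or LIS1+/- replicate 3.

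Of 18 laminin receptors 15 were tested, and 6 rose and 2 fell from hESC to Day 12 in LIS1+/+, 53.3% in all beside 53.1% of all genes. DAG1, which encodes dystroglycan, went from 540.0, 451 and 558 CPM to 302, 394 and 361 CPM (-0.55 ± 0.14, edgeR adjusted p = 0.00151) and fell by 0.41 in LIS1+/-. The heparan sulfate carriers SDC3 (1.61 ± 0.35) and GPC1 (1.30 ± 0.29) and the integrin ITGAV (1.31 ± 0.39) rose in LIS1+/+. No receptor passed a genotype comparison, where 0.491% of all genes passed in hESC, 1.95% at Day 5 and 1.4% at Day 12. Of 19 enzymes in the files that build the laminin-binding sugar of dystroglycan 17 were tested, with 2 higher and 4 lower over that span. GYLTL1B, which adds the sugar repeat that binds laminin, went from 317, 291 and 168 CPM to 4.52, 0.629 and 6.81 CPM (-5.93 ± 0.41, adjusted p = 8.31e-11). The mannose donor enzymes DPM1 (-1.34) and GMPPB (-1.26) fell and DPM3 rose (1.12). At Day 5 GYLTL1B was lower in LIS1+/-, at 7.10, 3.29 and 4.68 CPM against 18.8, 19.8 and 9.02 CPM (-1.66 ± 0.39, adjusted p = 0.0282), a call lost without Day 5 LIS1+/+ replicate 1 or 2 or LIS1+/- replicate 2 or 3, and with only the Day 5 libraries in the model.

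Of 29 enzymes of the heparan sulfate chain that perlecan carries 24 were tested, and 10 rose and 1 fell from hESC to Day 12 in LIS1+/+, beside 28.1% and 25% of all genes. SULF1, which removes sulfate groups outside the cell, went from 1.43, 0.668 and 5.59 CPM to 64.0, 121 and 78.8 CPM (5.10 ± 0.36, edgeR adjusted p = 1.13e-11), after 160.4, 139 and 167 CPM at Day 5. The sulfotransferases HS6ST2 (2.89 ± 0.38) and NDST2 (2.08 ± 0.31) and the linker enzyme B3GALT6 (0.76 ± 0.16) rose. No member of this list passed a genotype comparison, where 0.491% of all genes passed in hESC, 1.95% at Day 5 and 1.4% at Day 12.

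Of 22 matrix proteases and inhibitors in the files 18 were tested, and 3 rose and 9 fell over that span, beside 28.1% and 25% of all genes. MMP24 fell from 139.5, 109.5 and 70.8 CPM to 3.88, 1.26 and 4.38 CPM (-5.02 ± 0.39, edgeR adjusted p = 7.64e-11). ADAMTS9 rose from 2.38, 2.67 and 2.48 CPM to 60.1, 79.3 and 60.3 CPM (4.71 ± 0.39, adjusted p = 1.62e-10). SERPINH1, the chaperone of collagen folding, fell by 1.13. Between genotypes 1 of the 18 passed at each stage, where 0.491% of all genes passed in hESC, 1.95% at Day 5 and 1.4% at Day 12. In the genotype comparisons TIMP3, an inhibitor bound to matrix, was higher in hESC LIS1+/- (20.2, 28.4 and 38.6 CPM against 9.05, 16.7 and 6.21 CPM, 1.49 ± 0.35, edgeR adjusted p = 0.0480). TIMP4 was lower in LIS1+/- at Day 5, at 4.49, 4.75 and 0.585 CPM against 6.75, 11.5 and 14.2 CPM (-1.78 ± 0.44, adjusted p = 0.0365). MMP14, a membrane-bound protease, was lower at Day 12, at 7.42, 6.54 and 7.98 CPM against 40.7, 7.55 and 17.0 CPM, which overlap (-1.56 ± 0.40, adjusted p = 0.0468). The TIMP3 call was lost without hESC LIS1+/+ replicate 1 or 3 or LIS1+/- replicate 2 or 3, and with DESeq2 size factors. That of TIMP4 was lost without Day 5 LIS1+/+ replicate 2 or 3 or LIS1+/- replicate 1 or 3, and that of MMP14 without Day 12 LIS1+/+ replicate 1 or any Day 12 LIS1+/- library, and both were lost with only the libraries of their stage in the model. The change of the TIMP3 difference from hESC to Day 12 passed as well (-2.21 ± 0.47, adjusted p = 0.0271).

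The median log2 change of these lists from hESC to Day 12 in LIS1+/+ was -0.22 for the collagens, 0.68 for the other glycoproteins, 0.05 for the receptors, 0.15 for the dystroglycan enzymes, 0.73 for the heparan sulfate enzymes and -0.92 for the proteases and inhibitors, beside 0.09 over all genes. In LIS1+/- over the same span, 2 collagens rose and 3 fell, and 9 other glycoproteins rose and 7 fell. Over all genes 26.7% rose and 25.4% fell. Of the receptors 3 rose and 4 fell, and of the dystroglycan enzymes 4 rose and 6 fell. Of the heparan sulfate enzymes 11 rose and 3 fell, and of the proteases and inhibitors 2 rose and 10 fell.

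Among all tested genes outside the members, those whose log2 CPM followed a member most closely over the 18 libraries are given as a description. Pearson's r is given with no test, since the libraries share stages and depth. LAMB1 was followed most closely by COA7 (r = 0.93), LGR4 (0.91) and PSMA2 (0.91), and NID1 by PDE3A (0.77), TMEM163 (0.77) and INTS12 (0.76). For LAMA1 they were ZBTB16 (0.96), NCALD (0.95) and FLRT3 (0.95), and for LAMA5 C21orf59 (0.94), ADAM19 (0.93) and TRIP6 (0.93). LAMA2 was followed by MDM2 (0.89) and STAT3 (0.88), and LAMA4 by JAM3 (0.87) and WBP5 (0.84). For LAMB2 the closest were LOC101927497 (0.86) and GLI4 (0.83), and for LAMC1 HOOK1 (0.79) and NUP50 (0.75). NID2 was followed by VEGFA (0.87) and ACBD3 (0.85), and HSPG2 by ATPAF2 (0.91) and FKBP10 (0.91). Between members, the highest positive r were 0.61 for LAMA2 and LAMA5, and 0.59 both for LAMB1 and NID1 and for LAMA5 and LAMB1. Larger in size were the negative r of LAMA1 with LAMA2 (-0.86) and with LAMA5 (-0.72).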

How the data were processed

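Bulk MARS-seq was made from the WIBR3 line at 3 stages and 2 LIS1 genotypes, with 3 libraries in each of 6 groups. The authors deposited 1 file of raw counts per gene for each library. The submitters' processing notes name cutadapt, STAR, DESeq2, GRCh37 and hg38 without their roles. The counting strand and the collapsing of molecular tags are not stated in those sources. The 5 closing lines of each file name no gene. They held 49.2% to 70.6% of a library's counts and were left out of library sizes.

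Genes passing edgeR's filterByExpr (minimum count 10) were scaled by TMM and fitted in 1 model of 6 groups over 18 libraries with 12 residual degrees of freedom. The robust quasi-likelihood F-test (edgeR 4.0.16 with limma 3.58.1 in R 4.3.3) was two-sided in each of 12 comparisons: 3 between genotypes, 6 between stages and 3 of the change in the genotype difference. Benjamini-Hochberg adjustment ran over all tested genes, with a threshold of 0.05. The script was tested on simulated data. Intervals are 95%, and a count of 0 was read as up to 3 counts; intervals and floors cover the fitted or counting error only.

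The members, the pathway lists and the marker lists were chosen with earlier results of these data known. Pathway genes named are the 4 of each list with the smallest p from hESC to Day 12 in LIS1+/+ among those past a mean of 10 CPM in 1 group, and those called between genotypes. Of the 7 pathway lists, 1 is not reported here. The 3 neighbours of a member are those with the highest Pearson's r. The GC content of the last 500 bases came from GENCODE and promoters from RefSeq. GC slopes were fitted to log2 CPM minus the gene's mean over all libraries of the stage. Alternatives were DESeq2 1.42.0, its size factors, no filter, a fit of the compared libraries alone, a replicate block, leaving out each library, and, chosen after seeing the data, leaving out the 3 libraries with a GC trend. Plots used Matplotlib 3.10.9 (Python 3.11.15).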

Additional observations from a re-analysis of the deposited data

Results flagged for a closer look

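For 2 members the genotype difference differed between stages by a test of that difference, an interaction in edgeR's quasi-likelihood fit. LAMB1 was lower in LIS1+/- at Day 12 (3 of 3 libraries below all LIS1+/+ libraries), and its log2 difference there minus that at Day 5 was -2.27 (adjusted p = 0.00431), and minus that in hESC -2.30 (adjusted p = 0.00941). NID1 showed the same order of libraries at Day 12, and its difference there minus that at Day 5 was -1.84 (adjusted p = 0.00122), and minus that in hESC -2.04 (adjusted p = 0.00142). The Day 12 libraries enter both tests of a gene.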

How the results depend on the processing

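Between 1 and 2 members were called for the change of the genotype difference from hESC to Day 12 when 1 library was left out, and the lower count was that without Day 12 LIS1+/- replicate 3, where LAMB1 did not pass. With only the 6 compared libraries in the model, and so fewer samples, 1 member was called between genotypes at Day 12 (41 of all genes against 171), since the adjusted p of LAMB1 was 0.0579. The 30 called member values were repeated in 383 fits. The call held in 356 and was lost in 27, and 0 changed sign; 21 of the 30 held in each repeat. The calls lost on leaving out 1 library stand in the text beside their values. NID2 from hESC to Day 12 in LIS1+/+ was also lost in the fit of the compared libraries (adjusted p = 0.0558), LAMA4 there without the 3 libraries with a GC trend (0.93, adjusted p = 0.324), and LAMC1 from hESC to Day 5 in LIS1+/- without those 3 (adjusted p = 0.117). The 90 uncalled values were repeated in 1222 fits, of which 12 passed and 63 changed sign. Where the reason for a change is not given, the cause was not tested.

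Uncalled log2 values that changed sign ranged as follows when 1 library was left out. Between genotypes at Day 5 they ran from -0.052 to 0.058 for LAMA1, -2.21 to 0.89 for LAMA2, -0.094 to 0.71 for LAMA4, -0.039 to 0.39 for LAMA5, -0.29 to 0.22 for NID2 and -0.47 to 0.12 for HSPG2. Between genotypes at Day 12 they ran from -0.54 to 0.11 for LAMC1 and -0.87 to 0.079 for NID2. In LIS1+/+, LAMC1 ran from -0.036 to 0.21 from hESC to Day 5. From Day 5 to Day 12, LAMA1 ran from -0.13 to 0.071, LAMA2 from -0.725 to 0.97, LAMC1 from -0.29 to 0.36 and HSPG2 from -0.88 to 0.059. From hESC to Day 12, LAMB2 ran from -0.013 to 0.32, LAMC1 from -0.23 to 0.42 and HSPG2 from -0.53 to 0.41. In LIS1+/-, LAMB2 ran from -0.086 to 0.56 in the first step and LAMC1 from -0.060 to 0.35 in the second. The genotype difference at Day 5 minus that in hESC ran from -0.14 to 0.14 for LAMB1, -0.60 to 0.049 for LAMB2 and -0.89 to 2.21 for LAMA2. At Day 12 minus Day 5 it ran from -0.22 to 2.87 for LAMA2, -0.12 to 0.34 for LAMA5, -0.17 to 0.48 for LAMC1 and -0.82 to 0.13 for NID2, and at Day 12 minus hESC from -0.58 to 0.36 for HSPG2.

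Other settings changed the sign of uncalled values near 0. LAMA2 between genotypes at Day 5 was 0.00038 with DESeq2 size factors, 0.0093 with a replicate block and 0.012 with DESeq2, and LAMA1 there was -0.0021 with no filter. LAMA1 from Day 5 to Day 12 in LIS1+/+ was 0.029 with size factors, 0.0054 in the fit of the compared libraries and 0.028 with DESeq2, and HSPG2 from hESC to Day 12 was 0.011 in the compared fit. Without the 3 libraries with a GC trend HSPG2 was 0.12 between genotypes at Day 5, 0.061 from Day 5 to Day 12 and 0.15 from hESC to Day 12 in LIS1+/+. In the same setting LAMC1 was -0.033 and -0.013 over those spans, and the Day 5 minus hESC difference of LAMA2 was -0.96. Size factors moved the median of all genes by at most 0.036.

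Replicate numbers were not shown to pair the samples. The deviations of same-numbered libraries correlated between -0.227 and 0.331 (median 0.0166 over 45 pairs), and 18 of 45 correlated best with their own number. Between Day 12 LIS1+/+ and Day 12 LIS1+/- each library correlated best with its own number, though weakly (0.0400, 0.0840 and 0.0469). The same held between hESC LIS1+/- and Day 5 LIS1+/-, so a pairing within some groups is not excluded. With the replicate block the member calls lost were LAMA4 from hESC to Day 12 in LIS1+/+ (1.37, adjusted p = 0.0576) and LAMC1 from hESC to Day 5 in LIS1+/- (-0.75, adjusted p = 0.0606). Depth limits LAMA2 and LAMA4, the first with 109 counts over all libraries.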
